A study of Mus musculus with 8 samples.

Results

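The protamines *Prm1*, *Prm2* and *Prm3*, the transition proteins *Tnp1* and *Tnp2*, the spermatid H1 variants *H1fnt* and *Hils1*, and *Brdt* were read in RNA-seq of pachytene spermatocytes lacking SETDB1. These 8 genes were taken by name, in a choice made with earlier results of these data known, from the 22603 genes of the deposited table. All 8 lie on standard chromosomes and all 8 passed the filter on low values, which left 19462 protein-coding genes with a mean over 0.1 TPM in at least 1 genotype. TPM is a transcript level scaled by transcript length, so levels of different genes can be compared.

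The samples were 2 of wildtype and 2 of *Setdb1* cKO mice, and the study asked how loss of this H3K9 methyltransferase alters expression in pachytene cells. Wildtype cells came from C57BL/6J males at postnatal day 15 that carried no Cre. The cKO males were *Setdb1* flox/− with the *Ngn3-Cre* transgene, whose Cre is active in germ cells from spermatogonia onwards. They also carried an EYFP reporter of Cre activity and were bred on the C57BL/6J background. These males were of the same age or older, with no age given per sample. The deleted allele lacks the central part of the SET domain, where the enzyme's activity lies, and cKO germ cells stop at mid-pachynema, so that the testes hold no spermatids. Cells from both genotypes were sorted by DNA staining to early-to-mid pachynema, and RNA was taken from 500 cells. Only a part of the extracted RNA was amplified to cDNA. Test sorts by the study, made from wildtype testes, were mostly, but not wholly, pachytene, and no purity is given for cKO cells. The sources used here do not say that the 2 samples of a genotype came from separate animals. The limma p-values set the difference between genotypes against a spread estimated from these samples, and that spread may be technical.

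In elongating spermatids most histones are removed from DNA. Transition proteins take their place first, and the arginine-rich protamines follow and pack the sperm nucleus. H1 variants particular to spermatids join this remodelling, while the bromodomain protein BRDT, which binds acetylated histone H4, acts earlier, in spermatocytes, and again when histones leave. Protamine and transition protein genes are transcribed in round spermatids and their mRNA is stored before translation, so their transcripts are a mark of haploid cells.

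Between samples, log2(TPM + 1) values over all genes tested correlated at Pearson r = 0.974 for the wildtype pair and 0.923 for the cKO pair. The cKO replicate 1 correlated with the wildtype samples at 0.877 and 0.886, and cKO replicate 2 at 0.944 and 0.952, so cKO replicate 1 stood further from the rest. *Setdb1* was at 56.9 and 59.3 TPM in wildtype samples, with 28.7 and 37.2 TPM in cKO samples, lower in both cKO samples but short of the threshold (limma adjusted p = 0.269). Taken singly, cKO replicate 1 passed it (0.101) and cKO replicate 2 did not (0.320). None of the 23 pachytene markers was listed at 0 in any sample. The same held for 13 Sertoli markers and for 16 Leydig, peritubular, endothelial and macrophage markers, so this does not identify the cells. Read counts were not used here, so depth and counting error are unknown.

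Of the 8 genes, 7 were at or under 2.81 TPM in wildtype, at or under 6.58 TPM in cKO replicate 2, and at 63.6 TPM or more in cKO replicate 1. *Brdt* was high in every sample. Without *Brdt*, the median level over the 7 genes was 0.394 and 0.620 TPM for wildtype. It was 79.6 TPM for cKO replicate 1 but only 1.58 TPM for cKO replicate 2. Set among all genes tested, the 7 levels in cKO replicate 1 were above those of 84.9% to 97.1% of genes, while in cKO replicate 2 they were above those of 0% to 47.9%. The corresponding ranges were 0% to 28.8% and 0% to 38.9% in the wildtype samples.

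**Figure D1:**
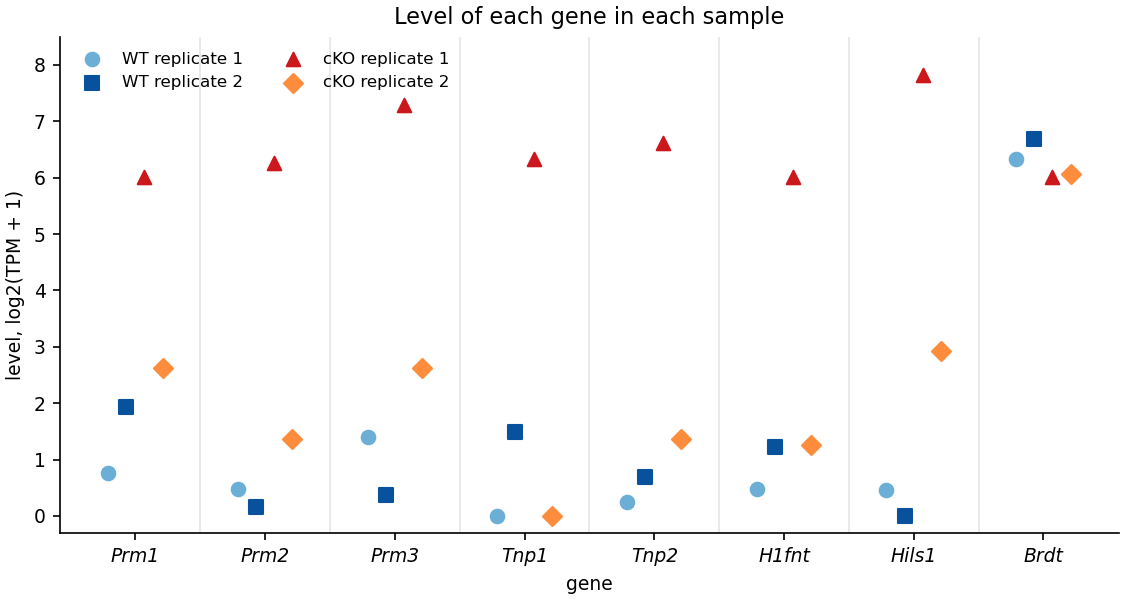
Level of each of the 8 genes as log2(TPM + 1), with 1 point per sample for the 2 wildtype and 2 cKO samples. For 7 genes cKO replicate 1 lies between 63.6 and 226 TPM and the other samples at or under 6.58 TPM, while *Brdt* lies between 63.4 and 102 TPM in all 4.

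Promoter sequences are shown here for 6 of the genes, since genes at separate places in the genome were all highest in cKO replicate 1. All 8 genes were matched to RefSeq promoter windows (GRCm38.p6), and *H1fnt* was found under its RefSeq name *H1f7*. Each sequence below is the 120 bases before the RefSeq start, 5′ to 3′ on the gene's strand. Capitals mark TGANNTCA, a looser form of the palindrome TGACGTCA that CREB and CREM bind, or TATATA, which resembles the core promoter element of that name. Both of these patterns were picked after the promoters had been read.
Prm1: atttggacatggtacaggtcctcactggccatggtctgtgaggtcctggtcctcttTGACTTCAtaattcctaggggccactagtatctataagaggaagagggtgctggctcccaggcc
Prm3: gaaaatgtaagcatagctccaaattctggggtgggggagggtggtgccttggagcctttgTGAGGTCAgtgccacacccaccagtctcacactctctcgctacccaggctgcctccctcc
Tnp1: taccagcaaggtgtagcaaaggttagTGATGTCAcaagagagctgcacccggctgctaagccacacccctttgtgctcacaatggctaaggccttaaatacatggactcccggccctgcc
Prm2: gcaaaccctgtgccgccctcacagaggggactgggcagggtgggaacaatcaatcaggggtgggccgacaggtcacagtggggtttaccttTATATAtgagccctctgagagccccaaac
Tnp2: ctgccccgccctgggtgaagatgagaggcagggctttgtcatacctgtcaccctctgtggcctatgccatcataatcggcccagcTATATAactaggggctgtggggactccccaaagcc
Hils1: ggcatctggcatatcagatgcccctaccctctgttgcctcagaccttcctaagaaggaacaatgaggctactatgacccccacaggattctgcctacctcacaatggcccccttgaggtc
These stretches lie at chr16:10796824-10796943 (*Prm1*), chr16:10790915-10791034 (*Prm3*), chr1:73015900-73016019 (*Tnp1*), chr16:10792106-10792225 (*Prm2*) and chr16:10788656-10788775 (*Tnp2*), all on the minus strand, and at chr11:94967473-94967592 (*Hils1*) on the plus strand.

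The search ran over the 250 bases before each start, on both strands for TGACGTCA, TGACG and TGANNTCA and on the gene's strand for TATAAA and TATATA, with the last base before the start counted as -1. TGANNTCA was found in *Prm1* (TGACTTCA, from -64 to -57), *Prm3* (TGAGGTCA, from -60 to -53) and *Tnp1* (TGATGTCA, from -94 to -87), that is in 3 of 8 genes against 11.9% of the 32851 RefSeq windows. TATATA was found in *Prm2* (from -29 to -24) and *Tnp2* (from -35 to -30), 2 of 8 genes against 5.25% of windows. The full palindrome TGACGTCA, in 1.55% of windows, and TATAAA, in 7.59%, were in 0 of 8. The shorter TGACG was in 1 of 8, *H1fnt* (from -180 to -176), against 17.8% of windows. *Hils1* and *Brdt* held none of the 5 patterns. Any TGACGTCA would also count as TGACG and TGANNTCA. A match is a match of letters only. The annotation of the expression files starts *Prm1* at position 10805839 and *Prm2* at 10796134, both upstream of their RefSeq starts at 10796823 and 10792105, so the windows of these genes may not be those of the annotated start.

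Transition proteins were low in wildtype. *Tnp1* (chromosome 1, 73015074 to 73015909, minus strand), which encodes transition protein 1, was listed at 0 and at 1.82 TPM in wildtype, at 79.6 TPM in cKO replicate 1 but at 0 in cKO replicate 2. The genotypes therefore overlapped for *Tnp1*, and the high level was that of 1 sample. *Tnp2* (chromosome 16, 10787936 to 10788660, minus strand), for transition protein 2, was at 0.181 and 0.620 TPM in wildtype against 96.7 and 1.56 TPM in cKO. Both cKO levels of *Tnp2* lay above both wildtype levels, with cKO replicate 1 at 61.9 times cKO replicate 2.

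Protamines too were highest in cKO replicate 1. *Prm1* (chromosome 16, 10796326 to 10805839, minus strand), which encodes protamine 1, was at 0.704 and 2.81 TPM in wildtype, 63.6 TPM in cKO replicate 1 but 5.18 TPM in cKO replicate 2. *Prm2* (chromosome 16, 10791380 to 10796134, minus strand), whose product is made as a precursor and trimmed in the spermatid nucleus, was at 0.400 and 0.114 TPM in wildtype samples, with 75.8 and 1.58 TPM in cKO samples. *Prm3* (chromosome 16, 10790505 to 10790914, minus strand, 1 exon), a relative by position whose mouse protein is acidic rather than arginine-rich, was at 1.63 and 0.298 TPM in wildtype against 155.8 and 5.14 TPM in cKO. For all 3 protamine genes both cKO levels exceeded both wildtype levels, and the cKO samples were 12.3, 47.9 and 30.3 times apart for *Prm1*, *Prm2* and *Prm3*. The ratio of *Prm2* to *Prm1* levels was 0.568 and 0.0406 in wildtype, 1.19 in cKO replicate 1 and 0.306 in cKO replicate 2, so *Prm2* was the more abundant of the pair in cKO replicate 1 alone.

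The spermatid H1 variants were likewise highest in cKO replicate 1. *Hils1* (chromosome 11, 94967593 to 94968456, plus strand, 1 exon), a linker histone-like protein of elongating spermatids, was at 0.381 TPM and listed at 0 in wildtype, at 226 TPM in cKO replicate 1 but at 6.58 TPM in cKO replicate 2. It had the highest level of the 8 genes in cKO replicate 1 and the highest of the 7 in cKO replicate 2, and made up 29.7% and 30.7% of the summed level of the 7 in these samples. *H1fnt* (chromosome 15, 98255986 to 98257293, minus strand, 1 exon), a linker histone that marks one pole of the spermatid nucleus, was at 0.394 and 1.35 TPM in wildtype samples, with 63.9 and 1.40 TPM in cKO samples. In cKO replicate 2 *H1fnt* was thus barely above the higher wildtype sample.

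*Brdt* (chromosome 5, 107331159 to 107387058, plus strand) is already active in normal pachytene spermatocytes. It was at 79.6 and 102 TPM in wildtype against 63.4 and 65.6 TPM in cKO. Both cKO levels were below both wildtype levels, and the cKO samples were close to each other.

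Order of the levels depended on the sample. In wildtype *Brdt* was far above the others, which followed by mean as *Prm1*, *Prm3*, *Tnp1*, *H1fnt*, *Tnp2*, *Prm2* and *Hils1*, and for each neighbouring pair among these 7 the ranges of the 2 samples overlapped. In cKO replicate 1 the order was *Hils1*, *Prm3*, *Tnp2*, *Tnp1*, *Prm2*, *H1fnt*, *Prm1* and *Brdt*. In cKO replicate 2 it was *Brdt*, *Hils1*, *Prm1*, *Prm3*, *Prm2*, *Tnp2*, *H1fnt* and *Tnp1*. Each of these orders rests on 1 sample, and the range of the cKO pair overlapped between every 2 of the 7 genes.

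With both cKO samples in the fit, *Hils1* alone of the 8 genes passed the threshold, which was an adjusted p under 0.2 over all genes tested, the value the study used for its own q-value. Its log2 fold change on the log2(TPM + 1) scale was 5.14 ± 1.41 (SE, n = 2 against 2), with a limma adjusted p of 0.196. That made 1 of 8 higher, against 3.48% of all genes, and 0 of 8 lower, against 1.11%. The call of *Hils1* lay close to the threshold and was lost when all biotypes were tested (adjusted p = 0.215), with quantile normalization (0.248), without a trend in the variance (0.288), and without wildtype replicate 1 (0.926) or wildtype replicate 2 (0.879). Over 13 alternatives its adjusted p ranged from 0.0216 to 0.926 and it passed in 8. Without cKO replicate 1 the count of genes higher was 1 of 8, and without cKO replicate 2 it was 7 of 8.

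The other spermatid genes missed the threshold in that comparison, with wide errors. Log2 fold changes were 4.07 ± 1.37 for *Prm3* (SE, limma adjusted p = 0.274), 2.97 ± 1.07 for *Prm1* (0.304), 3.50 ± 1.41 for *Prm2* (0.351) and 3.52 ± 1.51 for *Tnp2* (0.375). Those for *H1fnt* and *Tnp1* were 2.79 ± 1.39 (limma adjusted p = 0.450) and 2.42 ± 1.83 (0.640). *Brdt* had -0.48 ± 0.25 (0.477), the opposite sign. Before adjustment 4 of 8 genes, *Prm1*, *Prm2*, *Prm3* and *Hils1*, had p under 0.05, as did 2643 of the 19462 genes tested. Both cKO samples were above both wildtype samples in 6 of 8 genes, against 26.3% of all genes, and below them in 1 of 8, against 18.1%. The median log2 fold change over the 8 genes was 3.23, beside 0.08 over all genes tested.

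Taken alone against the wildtype pair, cKO replicate 1 had 7 of 8 genes higher, against 13.3% of all genes, and 0 of 8 lower, against 6.43%. The spread in such a fit comes from the 2 wildtype samples, and the lone cKO sample is assumed to vary as they do. Log2 differences ran from 4.66 ± 0.63 (SE) for *Prm1* (limma adjusted p = 0.0358) to 7.60 ± 0.47 for *Hils1* (0.0216). Those of the transition proteins were 5.58 ± 0.76 for *Tnp1* (0.0355) and 6.14 ± 0.48 for *Tnp2* (0.0216). *Prm2* and *Prm3* had 5.94 ± 0.46 (0.0216) and 6.41 ± 0.58 (0.0221), and *H1fnt* had 5.16 ± 0.54 (0.0227). All 7 differences were far past the 95th percentile of all genes in this sample, 2.21, and *Brdt* was at -0.50 ± 0.26 (0.347).

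In cKO replicate 2 alone, 1 of 8 genes was higher, against 2.74% of all genes, and 0 of 8 lower, against 0.699%. The gene was again *Hils1*, with a log2 difference of 2.69 ± 0.42 (SE, limma adjusted p = 0.165). *Prm3*, *Prm1* and *Prm2* had 1.73 ± 0.60 (0.317), 1.28 ± 0.66 (0.470) and 1.05 ± 0.33 (0.288), none of them past the threshold. *Tnp2*, *H1fnt* and *Brdt* had 0.89 ± 0.37 (0.381), 0.41 ± 0.47 (0.750) and -0.45 ± 0.25 (0.504). *Tnp1*, listed at 0 in this sample, had -0.75 ± 0.66 (0.678), so its sign was opposite to that in cKO replicate 1. Of the 8 differences those of *Prm3* and *Hils1* were past the 95th percentile of all genes in cKO replicate 2, 1.34. The median over the 8 genes was 0.97 in cKO replicate 2 and 5.76 in cKO replicate 1, beside 0.02 and 0.13 over all genes tested. This call and all others in cKO replicate 2 depended on the setting, and 0 genes passed by limma with a pseudocount of 0.1 or 0.5, where 2526 and 2691 genes had an unadjusted p under 0.05.

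**Figure D2:**
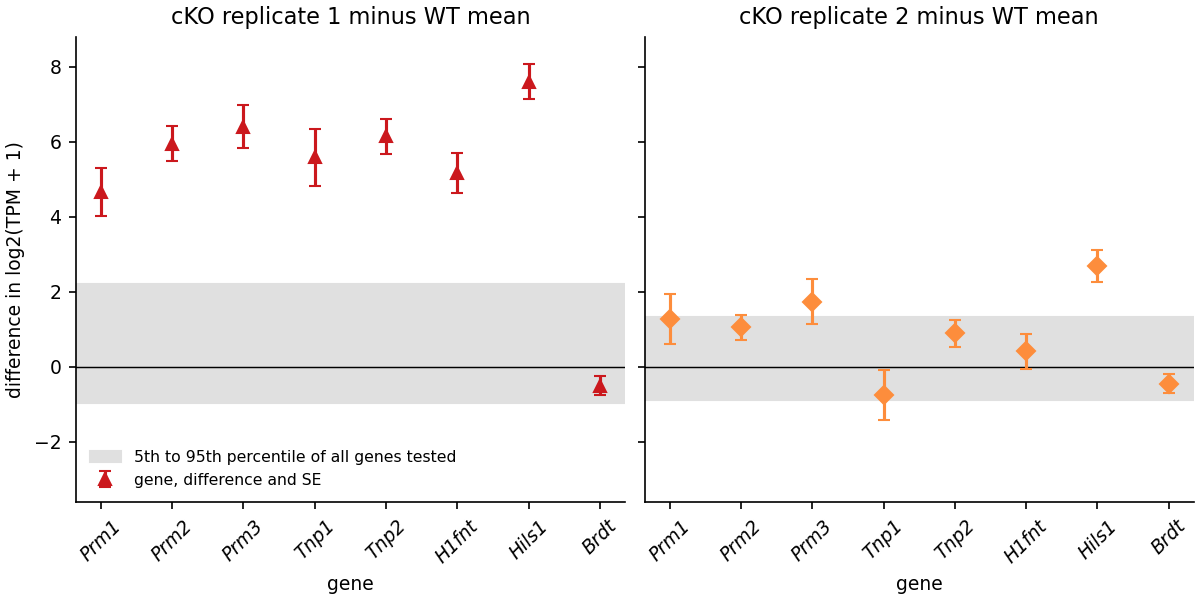
Log2 difference of each cKO sample from the wildtype mean on the log2(TPM + 1) scale for the 8 genes, with error bars of 1 SE from the fit of that sample against the wildtype pair, and a grey band from the 5th to the 95th percentile of all genes tested. The 7 spermatid genes lie from 4.66 to 7.60 in cKO replicate 1 and from -0.75 to 2.69 in cKO replicate 2, while *Brdt* is at -0.50 and -0.45.

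Of the 8 genes, the 7 other than *Brdt* were as unlike between the 2 cKO samples as few genes were. Where a ratio could be formed (6 genes, *Tnp1* being listed at 0 in cKO replicate 2), cKO replicate 1 was 12.3 to 61.9 times cKO replicate 2, with a median of 40.0. The cKO replicate 1 value exceeded that of cKO replicate 2 by 3.39 to 6.33 on the log2(TPM + 1) scale, and each of these gaps was larger than that of at least 98.7% of all genes. Over all genes the median gap was 0.12 and the 95th percentile 1.67. *Brdt* had a gap larger than that of 39.2% of genes, near the middle.

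Summed over the 8 genes, levels were 83.3 and 109 TPM in wildtype, 825 TPM in cKO replicate 1 but 87.1 TPM in cKO replicate 2. The cKO to wildtype ratio of mean sums was 4.74 (two-sided exact permutation p = 0.667, with 0.333 the smallest p that 2 against 2 allows), 8.58 without cKO replicate 2 and 0.905, a reversal, without cKO replicate 1. *Brdt* made up most of the sum in the other 3 samples. Without it the sums were 3.70 and 7.01 TPM in wildtype samples, with 762 and 21.4 TPM in cKO samples, a ratio of 73.1 (exact permutation p = 0.333), 142 without cKO replicate 2 and 4.01 without cKO replicate 1.

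*Prm1*, *Prm2*, *Prm3* and *Tnp2* lie side by side on chromosome 16, on the same strand, and *Socs1*, a suppressor of cytokine signalling, follows at 3124 bp from the start of *Tnp2* to its own start. The 4 genes summed to 2.92 and 3.84 TPM in wildtype, 392 TPM in cKO replicate 1 but 13.5 TPM in cKO replicate 2. Their share of the summed level of the 7 genes was 51.4% in cKO replicate 1 and 62.8% in cKO replicate 2. *Socs1* was at 19.6 and 24.4 TPM in wildtype against 32.5 and 32.8 TPM in cKO (limma adjusted p = 0.476), with no gap between the cKO samples. On the other side *Rmi2*, for a subunit of the BLM helicase complex, was at 5.06, 4.65, 5.43 and 3.01 TPM in wildtype replicates 1 and 2 and cKO replicates 1 and 2. The pseudogene *Gm10343*, within the span of *Prm1* but on none of its exons, was at 0.564 and 0.447 TPM in wildtype samples, with 4.97 and 10.6 TPM in cKO samples, so it was higher in the cKO sample with less *Prm1*. It was not tested, being no protein-coding gene.

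**Figure D3:**
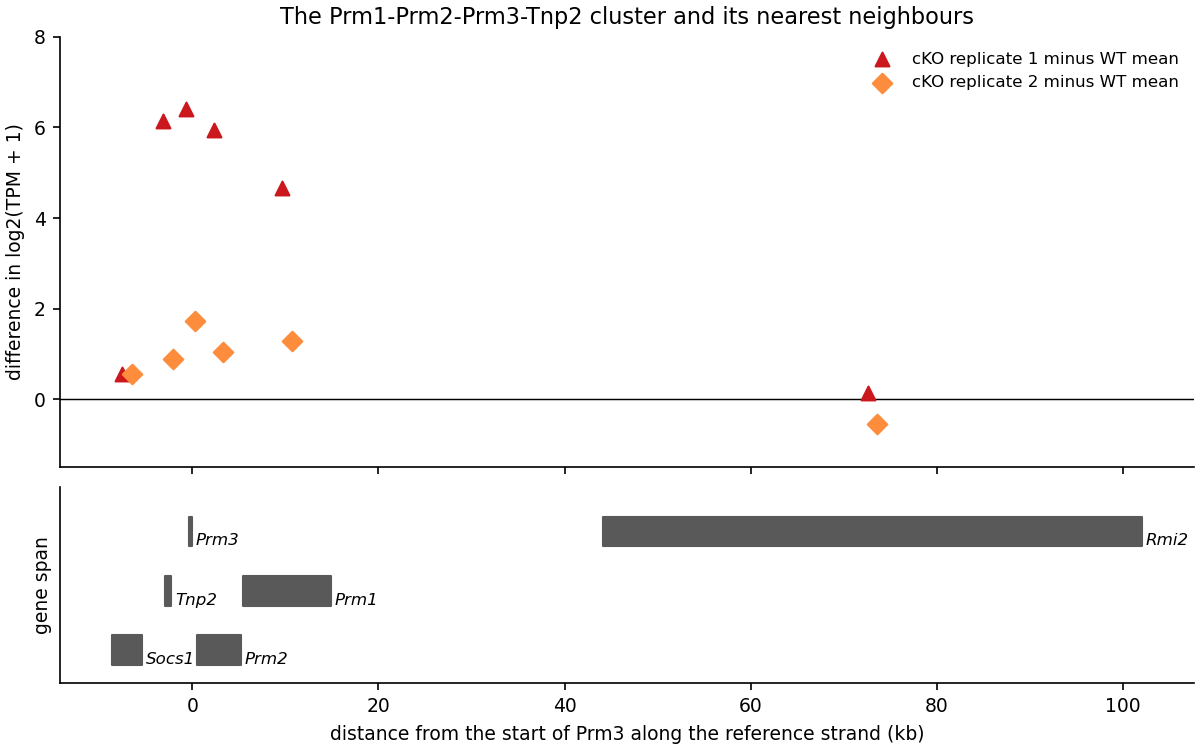
The *Prm1*-*Prm2*-*Prm3*-*Tnp2* cluster with *Socs1* and *Rmi2*. The upper panel plots the difference of each cKO sample from the wildtype mean in log2(TPM + 1) at the middle of each gene (the 2 samples set slightly apart sideways), against distance in kb from the start of *Prm3*, and the lower panel the gene spans; the 4 members lie from 4.66 to 6.41 in cKO replicate 1 and from 0.89 to 1.73 in cKO replicate 2, and the 2 samples lie together at *Socs1*.

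Other neighbours were counted as well. Of 18 genes that are no member and overlap one or start within 100 kb, 15 were tested, 1 was higher and 0 were lower in cKO, and the median log2 fold change was 0.34. In cKO replicate 1 alone 2 of the 15 were higher (*Ccdc184* and *Pdk2*, limma adjusted p = 0.0573 and 0.102) and 1 lower (*Sgca*, 0.167), and in cKO replicate 2 alone 1 was higher (*Pdk2*, 0.176) and 0 lower. The background shares are those given for the members, 3.48% higher and 1.11% lower with both cKO samples, 13.3% and 6.43% in cKO replicate 1, and 2.74% and 0.699% in cKO replicate 2. The gene called with both cKO samples was *Pdk2*, a pyruvate dehydrogenase kinase 73761 bp from *Hils1*, at 36.5 and 40.4 TPM in wildtype against 77.7 and 91.7 TPM in cKO (log2 fold change 1.11, limma adjusted p = 0.139). *Sgca*, which overlaps *Hils1* on the opposite strand without sharing exons, was at 20.4 and 27.4 TPM in wildtype samples, with 10.6 and 23.7 TPM in cKO samples, lowest where *Hils1* was highest. *Ccdc184*, 90135 bp from *H1fnt*, had 33.4 TPM in cKO replicate 1 against 5.91 to 8.36 TPM in the other samples, which resembles the pattern of the members at a smaller size. *Col1a1* and *Ppp1r9b* near *Hils1*, *Asb8* near *H1fnt* and *Tgfbr3* near *Brdt* reached 5 TPM in at least 1 sample and did not pass with both cKO samples in the fit.

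Likeness to each gene was measured as Euclidean distance over the 4 samples on the log2(TPM + 1) scale, and the 3 nearest genes that are no member were taken. Nearest to *Prm1* were *Ttc39a* (distance 0.41), *Akap3* (0.59) and *Akap1* (0.63). For *Prm2* they were *Arrdc5* (0.27), *Erich3* (0.34) and *Chl1* (0.55). *Akap3* anchors protein kinase A in the sperm tail. *Prm3* had *1700084M14Rik* (0.58), *Kif2b* (0.76) and *Cypt3* (0.78), and *Hils1* had *Tex33* (0.61), *Gstt4* (0.67) and *Kif2b* (0.88), so *Kif2b* was near both. *Tnp2* and *H1fnt* shared *Cypt2* (0.48 and 0.61), beside *1700019D03Rik* (0.50) and *4930505A04Rik* (0.53) for *Tnp2* and *Ccdc54* (0.55) and *Tmem262* (0.74) for *H1fnt*. *Tnp1* lay further from any gene, with *1700029H14Rik* (0.82), *Morn3* (1.32) and *Eqtn* (1.37). *Brdt* had close matches, *Sf3a2* (0.11), a splicing factor, *Nme7* (0.13) and *Kansl2* (0.16). Among the members themselves *Prm2* and *Tnp2* were nearest, at 0.69, with 15 other genes nearer to *Prm2* and 6 nearer to *Tnp2*.

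Late spermatid genes outside the 8 were also most abundant in cKO replicate 1, with a median level of 87.9 TPM there, 6.41 TPM in cKO replicate 2, and 1.24 and 1.02 TPM in wildtype. The list held 41 genes of the acrosome, tail and late spermatid cytoplasm, 40 of which were tested. Of all genes, 3.48% were higher and 1.11% lower with both cKO samples. For each cKO sample alone, the shares for this and the following lists are those given with the members. With both cKO samples 11 of 40 were higher and 0 lower, 29 and 0 in cKO replicate 1 alone, and 11 and 0 in cKO replicate 2 alone. Its median log2 fold change was 2.96, and 4.49 and 1.35 in the cKO samples taken singly. *Odf1*, for an outer dense fibre protein of the tail, was at 0.0699 and 0.0598 TPM in wildtype against 52.3 and 5.30 TPM in cKO (limma adjusted p = 0.147). *Spaca3* and *Spaca4*, for acrosomal proteins, were at 131 and 132 TPM in cKO replicate 1, at 11.8 and 6.94 TPM in cKO replicate 2, and at or under 0.401 TPM in wildtype (0.122 and 0.158). *Tekt2*, a tail tektin, was also transcribed in wildtype, at 56.8 and 44.3 TPM, and rose to 182 and 113 TPM in cKO (0.122). Without cKO replicate 1 the list had 11 genes called, without cKO replicate 2 it had 29, and without either wildtype sample 0.

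Summed over these 40 genes, levels were 3820 and 4376 TPM in wildtype samples, with 6892 and 6208 TPM in cKO samples. A single gene, *Meig1*, made up 2315 and 2739 TPM of the wildtype sums and 2242 and 3397 TPM of the cKO sums. Listed at 0 were 4 and 5 genes in the wildtype samples and 0 in the cKO samples. Of the 40, 27 were below 5 TPM in wildtype. Their median level was 0.627 and 0.342 TPM in wildtype, 86.2 TPM in cKO replicate 1 but 4.45 TPM in cKO replicate 2. The median gap between the cKO samples was 3.53 for these genes and 4.89 for the 7 spermatid members, on the log2(TPM + 1) scale, beside 0.19 for all 8940 genes tested that were as low in wildtype. Of the other 13 genes, already at 5 TPM or more in wildtype, 8, among them *Zpbp2* (227 and 394 TPM in cKO replicates 1 and 2) and *Meig1* (2242 and 3397 TPM), which were chosen after their values were seen, were higher in cKO replicate 2. In RNA from 500 pooled cells, the number of cells that held a transcript and its amount per cell cannot be told apart.

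**Figure D4:**
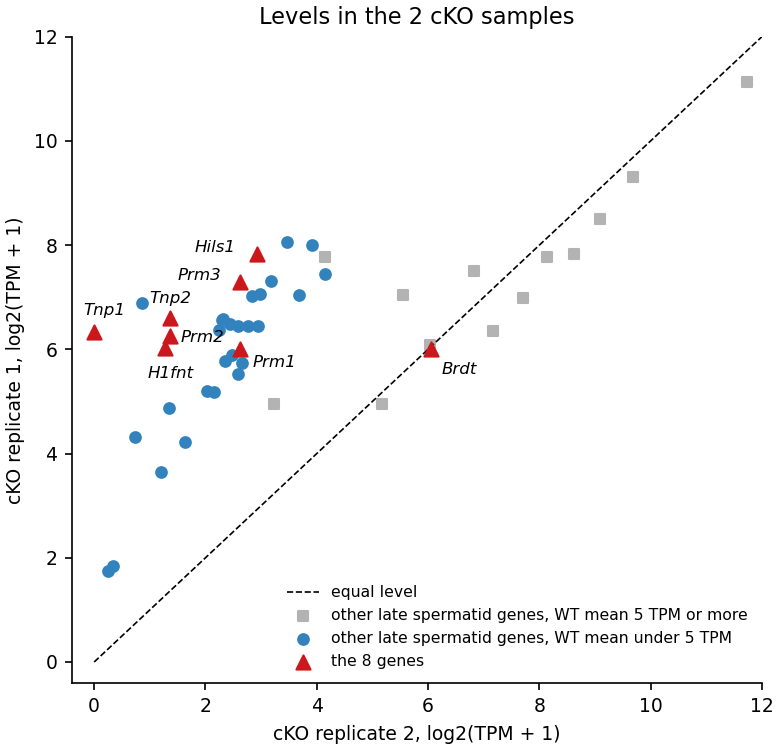
Level in cKO replicate 1 against level in cKO replicate 2, both as log2(TPM + 1), for the 8 genes and for 40 other late spermatid genes split by their wildtype mean at 5 TPM, with a dashed line of equal level. The 7 spermatid members and the 27 late spermatid genes that were low in wildtype lie above the line, and *Brdt* lies on it.

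Few other chromatin factors of spermatids were called with both cKO samples, where 3.48% of all genes were higher and 1.11% lower. The list held histone variants, histone modifiers and chaperones, of which 27 were tested. With both cKO samples 1 was higher and 1 lower, 7 and 3 in cKO replicate 1 and 1 and 0 in cKO replicate 2, and the median log2 fold change was 0.20. *H2afb1*, an X-linked gene for a short H2A variant of the testis, was listed at 0 in both wildtype samples. It was at 6.42 and 2.50 TPM in cKO (limma adjusted p = 0.113). *Rnf8*, the ubiquitin ligase that acts on H2A and H2B, fell from 55.9 and 68.5 TPM to 29.6 and 27.5 TPM (0.161). *Hspa2*, a chaperone of transition proteins, was at 1216 and 1406 TPM in wildtype against 518 and 870 TPM in cKO (0.313), and *Parg* was at 67.0, 68.1, 48.3 and 41.7 TPM in the same order of samples (0.374). The 7 genes of the list below 5 TPM in wildtype had medians of 1.07 and 2.52 TPM in wildtype, 6.42 TPM in cKO replicate 1 but 0.852 TPM in cKO replicate 2, and their median gap between the cKO samples was 2.21 on the log2(TPM + 1) scale, beside 0.19 for all genes as low. Without cKO replicate 2 the list had 10 genes called, without cKO replicate 1 it had 1, and without either wildtype sample 0.

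Regulators of transcription in haploid cells gave 2 higher and 1 lower of 16, against 3.48% and 1.11% of all genes. Their median log2 fold change was 0.36. *Taf7l*, an X-linked subunit of TFIID, rose from 42.6 and 75.6 TPM to 348 and 211 TPM (limma adjusted p = 0.0722). *Sox5* reached 65.9 and 17.1 TPM from a wildtype level of 3.68 and 3.96 TPM (0.135). *Kdm3a*, the H3K9 demethylase needed for *Tnp1* and *Prm1* expression, fell from 193 and 219 TPM to 84.8 and 125 TPM (0.199). *Spz1*, a leucine zipper factor, had the pattern of the 7, with 0.379 and 2.39 TPM in wildtype samples, with 163 and 6.31 TPM in cKO samples (0.270). *Crem*, whose activator form turns on protamine genes in round spermatids, was chosen here after its values were seen and was at 153 and 200 TPM in wildtype against 218 and 195 TPM in cKO (0.776). In cKO replicate 1 alone 5 of 16 were higher and 3 lower, and in cKO replicate 2 alone 1 and 0. Without either wildtype sample 0 genes of this list were called.

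Genes that store spermatid mRNA or control its translation gave 1 higher and 2 lower of 20, against 3.48% and 1.11% of all genes. Their median log2 fold change was -0.39. *Ptbp2*, a splicing regulator of germ cells, fell from 154 and 171 TPM to 57.0 and 70.7 TPM (limma adjusted p = 0.0912), and *Ddx4*, the germ cell helicase, fell from 642 and 778 TPM to 260 and 382 TPM (0.174). *Papolb*, the testis poly(A) polymerase, rose from 70.6 and 55.2 TPM to 114 and 157 TPM (0.173). *Piwil1*, the piRNA-binding protein of pachytene cells and round spermatids, was at 444 and 488 TPM in wildtype samples, with 27.2 and 190 TPM in cKO samples (0.221). In cKO replicate 1 alone 1 was higher and 6 lower, in cKO replicate 2 alone 2 and 2, and without either wildtype sample 0 genes were called.

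Markers of other cells were read beside the members and the same shares of all genes, 3.48% higher and 1.11% lower with both cKO samples. Pachytene markers summed to 8556 and 10150 TPM in wildtype against 6195 and 7974 TPM in cKO, with 4 higher and 5 lower of 23, 4 and 10 in cKO replicate 1 alone, and 4 and 3 in cKO replicate 2 alone. *Pgk2* and *Ccna1* both rose (limma adjusted p = 0.0315 for each). *Pgk2* was at 41.6 and 39.4 TPM in wildtype and reached 170 and 191 TPM in cKO, while *Ccna1* went from 24.7 and 26.2 TPM up to 142 and 238 TPM. *Piwil2* and *Ccnb1ip1* fell (0.0505 and 0.0847). For *Pgk2* and *Ccna1* the higher level was in cKO replicate 2, the reverse of the 7 spermatid members. The other markers called higher, *Adam3* and *Spag6*, are named here after their values were seen. *Adam3* was also higher in cKO replicate 2, at 231 and 350 TPM in cKO replicates 1 and 2. *Spag6* had the pattern of the 7 members, with 1.58 and 0.527 TPM in wildtype against 108.9 and 8.15 TPM in cKO. Spermatogonial markers, 16 tested with 1 higher (*Neurog3*, listed at 0 in wildtype and at 1.68 and 1.42 TPM in cKO, whose promoter drives the Cre), summed to 271 and 352 TPM in wildtype samples, with 588 and 373 TPM in cKO samples. In cKO replicate 1 alone 5 of the 16 were higher and 1 lower, and in cKO replicate 2 alone 1 and 0. Sertoli markers, 13 tested with 1 higher (*Defb36*), also 1 in cKO replicate 1 and 0 in cKO replicate 2, summed to 2622 and 2162 TPM in wildtype against 2769 and 2461 TPM in cKO.

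Leydig, peritubular, endothelial and macrophage markers, 16 tested with 0 called by limma (smallest unadjusted p = 0.149), summed to 150 and 294 TPM in wildtype, 832 TPM in cKO replicate 1 but 152 TPM in cKO replicate 2. Most of the sum in cKO replicate 1 was *Insl3*, a hormone of Leydig cells, at 49.8 and 145 TPM in wildtype samples, with 557 and 71.2 TPM in cKO samples. None of the 16 was listed at 0 in any sample, and in cKO replicate 1 alone 5 were higher and 0 lower. The sums of this list and of the spermatogonial and Sertoli lists were thus highest in the sample with the most protamine transcript, the Sertoli sum by a small margin. By the study's account the cKO testes held no spermatids and the cells had been sorted to pachynema. The part of transcripts from other cells in the levels of the 7 members was not tested.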

How the data were processed

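RNA-seq of sorted pachytene cells was analysed for 2 wildtype and 2 *Setdb1* cKO samples, grouped by their labels. The authors amplified cDNA by Smart-seq2, sequenced single reads without strand, quantified transcripts with kallisto against GRCm38 and normalized with sleuth. The deposited value per gene and sample is a normalized TPM, treated as a signal because the deposited columns sum to between 942186 and 1109725. Columns of the authors' comparison (p, q, effect estimate and its SE) were not used. Depth is unknown, so no counting interval was given. The 4 ChIP-seq samples were not analysed here.

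Protein-coding genes with a mean over 0.1 TPM in a genotype were compared as log2(TPM + 1) with limma 3.58.1 in R 4.3.3 (eBayes with a trend, two-sided, Benjamini-Hochberg over all genes, adjusted p under 0.2), with both cKO samples and with each alone. A fold change on this scale understates that of low genes. The fit was also run on simulated data, with the same spread in both genotypes. Changes were placed only in genes well above the wildtype levels of the members other than *Brdt*, so the simulation does not bear on the calls of these members. Sums were compared by an exact permutation test. Sequences came from RefSeq windows (GRCm38.p6), read with Python 3.11.15, and figures were drawn with matplotlib 3.10.9.

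The 8 genes and 8 gene lists were chosen with earlier results of these data known. Beyond the members, the text names genes within 100 kb of a member that were called or reached 5 TPM, the 4 genes of each list with the smallest p, and the 3 genes nearest to each member. Alternatives were a pseudocount of 0.1 or of 0.5, dropping the filter or raising it to 1 TPM, testing every biotype, scaling each sample to its autosomal genes, quantile normalization, no trend, a replicate block, an adjusted p under 0.05, and leaving out each sample. The members' sum without *Brdt* and the list counts without each sample were added after seeing the data. Leaving out a cKO sample gives the same fit as the other cKO sample alone, so it is no separate check.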

Additional observations from a re-analysis of the deposited data

How the results depend on the processing

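With both cKO samples 895 genes passed, 448 without a trend in the variance, 56 at an adjusted p under 0.05, and from 0 to 3837 when 1 sample was left out (0 without either wildtype sample, with 984 and 1082 genes at an unadjusted p under 0.05). Of the 8 genes, 1 passed, and 2 with rescaling to autosomal genes, where 1062 of all genes passed. With all biotypes (874 of all genes), quantile normalization (607), no trend or an adjusted p under 0.05, 0 of the 8 passed. Their median log2 fold change ran from 0.97 to 5.76 with 1 sample left out. *Tnp1* ran from -0.75 without cKO replicate 1, a reversal, to 5.58 without cKO replicate 2. *Brdt* was negative in all 13 alternatives with both genotypes, and passed as lower only in cKO replicate 1 alone with quantile normalization.

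In cKO replicate 2 alone 670 genes and 1 member passed. These became 0 and 0 with a pseudocount of 0.1 or 0.5, with all biotypes and without a trend. Rescaling gave 1184 genes and 3 members, quantile normalization 1734 genes, and a filter at 1 TPM 1498 genes. In cKO replicate 1 alone the median log2 difference of the 8 genes ran from 5.65 with quantile normalization to 7.53 with a pseudocount of 0.1. The medians over all genes in these 2 settings were -0.16 and 0.20. Leaving out a wildtype sample from a fit of 1 cKO sample was not run, since no residual degrees of freedom remain.

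The summed level of the 8 genes had a cKO to wildtype ratio from 0.905 to 8.58 with 1 sample left out, and from 4.01 to 142 without *Brdt*. With 1 sample left out, the calls ranged from 0 to 10 for chromatin factors, 0 to 8 for transcription regulators, 0 to 7 for storage and translation, 0 to 29 for late spermatid genes, 0 to 14 for pachytene, 0 to 6 for spermatogonial, 0 to 1 for Sertoli and 0 to 5 for Leydig and other somatic markers. Rescaling moved the median of all genes from 0.08 to 0.18 and the split of calls from 678 higher and 217 lower to 959 and 103, and quantile normalization moved the median to -0.11. The labels number the samples 1 and 2 in each genotype without saying what the number means. Across genes, deviations of same-numbered samples from their genotype means correlated at 0.025. With 2 samples per genotype this cannot tell whether same-numbered samples shared a batch. A replicate block gave 1409 genes and 4 members called.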
